A study of Homo sapiens with 4 samples.

Results

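The Iroquois homeobox genes IRX1 to IRX6 were examined in H9 human embryonic stem cells at day 7. They are 6 of the 25690 gene rows of a count table, chosen by gene symbol, and were picked for description with their difference between these genotypes already known. Their values are therefore given as a description with no test. The tested cells carried the genotype label TFAP2A knockout (2 libraries), and the cells they were set against were wild-type (WT) H9 cells (2 libraries). PolyA-selected RNA was sequenced. By the series title the cells were non-neural ectoderm, the sheet of the early embryo that gives rise to skin and to the placodes of the head. No clone, guide, culture protocol or other treatment is given in the labels used here, and the labels do not say whether 2 libraries of the same genotype were grown apart. The p-values below therefore measure the spread among these libraries only, and that spread may be technical.

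Iroquois genes encode homeodomain transcription factors of the TALE class, known since the iroquois complex of Drosophila as factors that divide embryonic fields into territories. In vertebrates they sit in a pair of clusters that arose by duplication, with IRX1, IRX2 and IRX4 in one and IRX3, IRX5 and IRX6 in the other. The genes of a cluster are often expressed in overlapping domains, among them the neural plate, the early ectoderm and its placodes, the heart, the limb and the retina. TFAP2A encodes AP-2 alpha, a transcription factor of surface ectoderm and neural crest.

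The libraries held 19305867.5 and 21797850.5 counts in the cells labelled knockout and 17945210 and 17838204 counts in WT. Levels are CPM, the counts per 1000000 counts of a library, with library sizes adjusted by TMM factors. Knockout samples carry TFAP2C in their titles but TFAP2A as their genotype, and only TFAP2A is in the title of the series. TFAP2A itself was at 133 and 121 CPM in the libraries labelled knockout, against 171 and 198 CPM in WT (edgeR's quasi-likelihood test, adjusted p = 0.000125). TFAP2C was at 8.89 and 5.77 CPM in the libraries labelled knockout, against 27.5 and 30.6 CPM in WT (edgeR's quasi-likelihood test, adjusted p = 6.66e-06). A gene total cannot tell transcript with a disrupting edit from intact transcript, so these levels check the label only in part. All directions are those of the libraries labelled knockout. In bulk RNA, fewer cells of a type and less RNA per cell cannot be told apart.

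Promoter windows are shown for the chromosome 5 genes only, because none were at hand for IRX3, IRX5 and IRX6. AP-2 factors are known to bind the palindrome GCCNNNGGC and its variant with 4 bases in the middle, which read the same on both strands. RefSeq promoter sequences (GRCh38.p14) were matched for 3 of the 6 Iroquois genes, IRX1, IRX2 and IRX4. Each line gives the 250 bases before the RefSeq gene start, 5′ to 3′ on the strand of the gene, and capitals mark matches to either palindrome. The windows are chr5:1887180-1887429 on the minus strand for IRX4, chr5:2751678-2751927 on the minus strand for IRX2 and chr5:3595582-3595831 on the plus strand for IRX1.
IRX4: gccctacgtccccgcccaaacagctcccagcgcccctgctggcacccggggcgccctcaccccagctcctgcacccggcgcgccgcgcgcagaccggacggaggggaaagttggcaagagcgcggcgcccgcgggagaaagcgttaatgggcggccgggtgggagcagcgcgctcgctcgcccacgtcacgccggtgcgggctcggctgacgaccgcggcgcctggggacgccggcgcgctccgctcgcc
IRX2: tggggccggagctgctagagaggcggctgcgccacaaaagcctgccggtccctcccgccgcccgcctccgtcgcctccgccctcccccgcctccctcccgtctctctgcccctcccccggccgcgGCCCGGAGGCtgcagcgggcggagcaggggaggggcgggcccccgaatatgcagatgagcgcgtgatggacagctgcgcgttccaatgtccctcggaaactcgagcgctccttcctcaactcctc
IRX1: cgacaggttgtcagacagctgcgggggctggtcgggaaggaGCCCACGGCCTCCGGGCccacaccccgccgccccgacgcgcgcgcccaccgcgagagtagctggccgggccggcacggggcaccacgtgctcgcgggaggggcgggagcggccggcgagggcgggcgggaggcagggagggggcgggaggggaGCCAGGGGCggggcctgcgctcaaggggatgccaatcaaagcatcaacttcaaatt

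The IRX1 window held 2 matches to GCCNNNGGC, beginning 209 and 56 bases before the start, and 1 match to the variant with 4 middle bases, which overlapped the upstream match by 2 bases. The IRX2 window held no match to GCCNNNGGC and 1 match to the variant with 4 middle bases, 125 bases before the start. The window of IRX2-DT, the gene on the opposite strand, overlaps that of IRX2, and this is the same site (chr5:2751793-2751802), 100 bases before the IRX2-DT start. The window at the IRX4 gene start held neither. Of the 2 other RefSeq starts of IRX4, one also had neither and the other had 1 match to GCCNNNGGC. The window of CRNDE, a gene beside IRX5, held 3 matches to GCCNNNGGC and 2 to the variant, and that of IRX4-AS1 held neither. Of all 35116 promoter windows of this length, 19.8% held GCCNNNGGC and 18.6% held the variant with 4 middle bases. The windows of IRX1, IRX2 and IRX4 were 72.8% to 77.6% G and C, against a median of 58.0% over all windows. The palindrome ACANNTGT, which Iroquois factors are known to bind, was in none of the 3 windows and in 4.71% of all windows. A match says only that the letters are present.

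All 6 Iroquois genes were lower in the libraries labelled knockout than in WT, with no overlap between the groups for any of them. The fall ranged from a fraction of the level for IRX3 to nearly the whole of it for IRX4 and IRX6. Of all 15643 genes tested, 44.2% passed an adjusted p of 0.05 in either direction, 22.3% as lower and 21.9% as higher, and 6.77% were lower with a log2 fold change of -1 or below. In 36.6% both knockout-labelled libraries were below both WT libraries. All 6 Iroquois genes had enough counts to be tested, and 6 of 6 were past this threshold as lower, a count that cannot serve as evidence because the genes were chosen with this contrast known. IRX1, IRX4 and IRX6 passed the low-count filter through the WT libraries only, so they had to differ to be tested. Over all 6 Iroquois genes, these 3 included, the median log2 fold change was -3.15. For the same reasons it cannot be set against the 0.0019 over all genes tested. Summed over the family, the level was 234 and 202 CPM in the libraries labelled knockout and 436 and 459 CPM in WT, so that 48.7% of the WT level was left. IRX3 made up most of these sums.

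**Figure D1:**
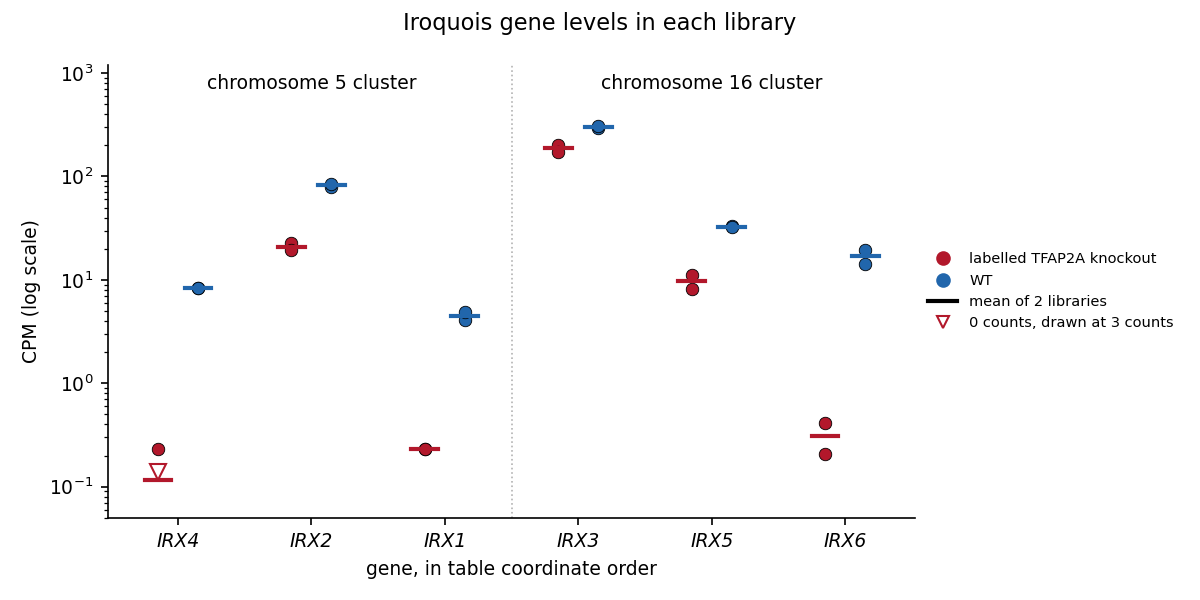
Level of each Iroquois gene in each library, as CPM on a log axis, for the 2 libraries labelled knockout (red) and the 2 WT libraries (blue), with a bar at each mean. The groups do not overlap for any gene, and IRX4 had 0 counts in 1 library labelled knockout, drawn as a triangle at the level of 3 counts.

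In the chromosome 5 cluster, IRX4 showed the deepest fall of the family. IRX4 (chromosome 5, 1877541 to 1887293, minus strand, hg19) is best known as a factor of the ventricular heart muscle. It had 4.5 and 0 counts in the libraries labelled knockout, or 0.23 and 0 CPM, against 150 and 147 counts in WT, or 8.39 and 8.34 CPM. Both knockout-labelled libraries were far below both WT libraries. The log2 fold change was -6.34 (SE 0.42), and the summed WT level was 76.8 times that in the libraries labelled knockout (95% exact counting interval 31.2 to 258). These few counts set the size of the fold, which was -5.30 on the log2 scale without knockout replicate 2. Without knockout replicate 1 the remaining library had no count, and against the 3 counts that a count of 0 allows IRX4 was at least 60.8-fold lower. Counting intervals and floors cover counting error only.

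IRX2 (chromosome 5, 2746279 to 2751769, minus strand, hg19), known from hindbrain patterning in chick, was the most abundant of this cluster per kilobase of exon. It was at 22.6 and 19.3 CPM in the libraries labelled knockout, against 79.7 and 84.7 CPM in WT. About the same level was found in the libraries of each genotype, and 25.4% of the WT level was left in the libraries labelled knockout (log2 fold change -1.97, SE 0.08). Leaving out any library kept this value between -2.09 and -1.86.

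IRX1 (chromosome 5, 3596168 to 3601517, plus strand, hg19), known from mouse lung and tooth development, had the lowest WT level of the family per kilobase of exon. It had 4.5 and 5 counts in the libraries labelled knockout, or 0.23 CPM in each, against 72.5 and 87 counts in WT, or 4.05 and 4.93 CPM. The WT libraries were both well above those labelled knockout, and the log2 fold change was -4.32 (SE 0.34). The WT level was 19.5 times that in the libraries labelled knockout (95% exact counting interval 10.2 to 42.5).

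In the chromosome 16 cluster, IRX3 stood apart as the gene that kept the largest part of its transcript. IRX3 (chromosome 16, 54317212 to 54320378, minus strand, hg19) patterns the neural tube in chick and mouse and is the gene that enhancers inside the obesity-associated FTO locus are known to contact. It was at 200 and 174 CPM in the libraries labelled knockout, against 297 and 309 CPM in WT. The groups did not overlap, and 61.4% of the WT level was left (log2 fold change -0.70, SE 0.06). Its log2 fold change lay between -0.80 and -0.60 when any library was left out.

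IRX5 (chromosome 16, 54965111 to 54968395, plus strand, hg19), the gene mutated in the craniofacial and heart disorder Hamamy syndrome, was at 11.2 and 8.25 CPM in the libraries labelled knockout, against 32.8 and 32.2 CPM in WT. The WT libraries were nearly equal and the libraries labelled knockout were both lower, with 29.7% of the WT level left (log2 fold change -1.74, SE 0.13).

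IRX6 (chromosome 16, 55358471 to 55364672, plus strand, hg19), a factor of retinal bipolar cells in mouse, had 8 and 4.5 counts in the libraries labelled knockout, or 0.41 and 0.21 CPM. Against these stood 252.5 and 345.5 counts in WT, or 14.1 and 19.6 CPM. Its WT libraries differed from each other more, in proportion, than those of the other members, yet both were far above the libraries labelled knockout. The log2 fold change was -5.83 (SE 0.30), and the WT level was 55.7 times that in the libraries labelled knockout (95% exact counting interval 32.0 to 107). Without knockout replicate 1 the log2 fold change was -6.47, a change of more than 1.5 times in the fold.

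The size of the fall varied between paralogs in a way that did not follow the cluster. IRX4 and IRX6, which are taken as paralogs and lie at an outer end of their clusters, had log2 fold changes of -6.34 and -5.83. IRX2 and IRX5, the middle genes of their clusters, had -1.97 and -1.74. IRX1 and IRX3, the remaining pair, differed most, with -4.32 and -0.70. Among all genes tested, 0.639% had a log2 fold change of -4 or lower, and IRX1, IRX4 and IRX6 were among them. A log2 fold change as low as that of IRX3 or lower was found in 10.6% of all genes tested. In the plot of fold change against mean level, the 3 genes of lowest WT level per kilobase had the 3 deepest falls, a description of 6 points on a scale where low genes vary more.

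**Figure D2:**
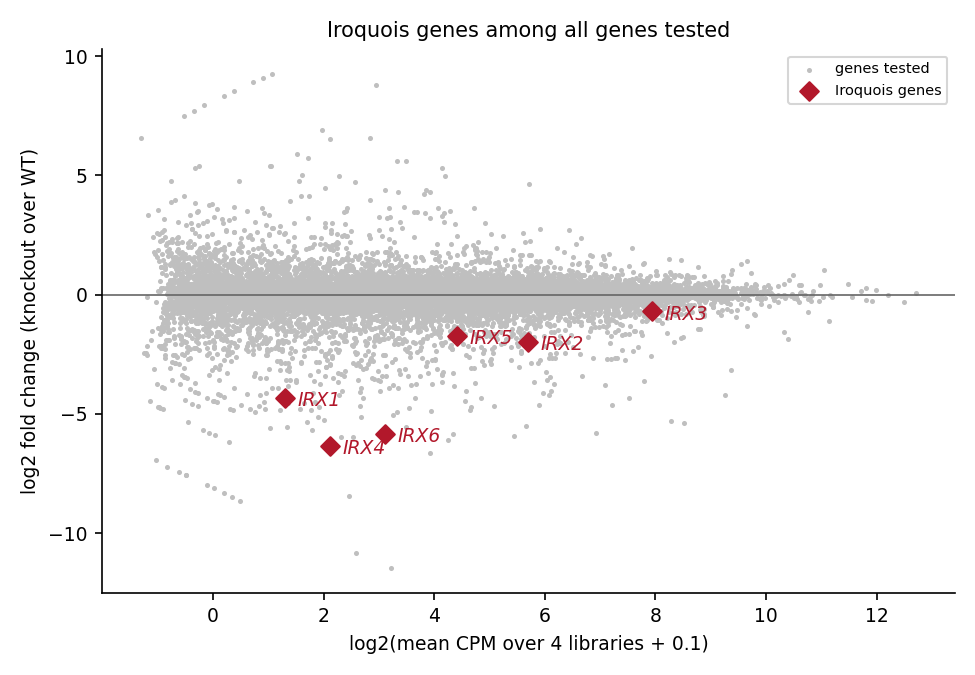
Log2 fold change (knockout-labelled over WT) against log2 of the mean CPM plus 0.1 for the 15643 genes tested (grey) and the 6 Iroquois genes (red). All 6 Iroquois genes lie below 0, with IRX3 at -0.70 nearest to it and IRX4 at -6.34 farthest.

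Levels were compared between the genes per kilobase of exon, using exon lengths of GENCODE 29. In the libraries labelled knockout the order of CPM per kilobase was IRX3 (71.8 ± 7.05, SD, n = 2), IRX2 (6.20 ± 0.698), IRX5 (3.81 ± 0.827), IRX1 (0.124 ± 0.0005), IRX6 (0.0985 ± 0.046) and IRX4 (0.0429 ± 0.0606). The values of IRX6 overlapped those of IRX1 and of IRX4, so the order of these 3 was not resolved. In WT the order was IRX3 (116.5 ± 3.41), IRX2 (24.3 ± 1.05), IRX5 (12.7 ± 0.186), IRX6 (5.39 ± 1.24), IRX4 (3.11 ± 0.0138) and IRX1 (2.42 ± 0.335), and no neighbours in this order overlapped. The same 3 genes therefore led in both genotypes.

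Each cluster came to be made up more by its leading gene. IRX2 held 97.4% ± 0.653 of the CPM per kilobase of the chromosome 5 cluster in the libraries labelled knockout and 81.5% ± 0.227 in WT (SD, n = 2 each). IRX4 held 0.621% ± 0.879 of it in the libraries labelled knockout and 10.4% ± 0.525 in WT, and IRX1 held 1.96% ± 0.226 and 8.09% ± 0.751, in the same order of genotypes. In the chromosome 16 cluster, IRX3 held 94.9% ± 0.617 in the libraries labelled knockout and 86.6% ± 0.336 in WT. IRX5 held 5.01% ± 0.569 in the libraries labelled knockout and 9.45% ± 0.451 in WT, and IRX6 held 0.128% ± 0.0474 in the libraries labelled knockout and 3.99% ± 0.787 in WT. The share of the leading gene was above both WT values in both knockout-labelled libraries of each cluster. Summed CPM of the chromosome 5 genes left 22.4% of the WT level, and that of the chromosome 16 genes left 55.8%.

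**Figure D3:**
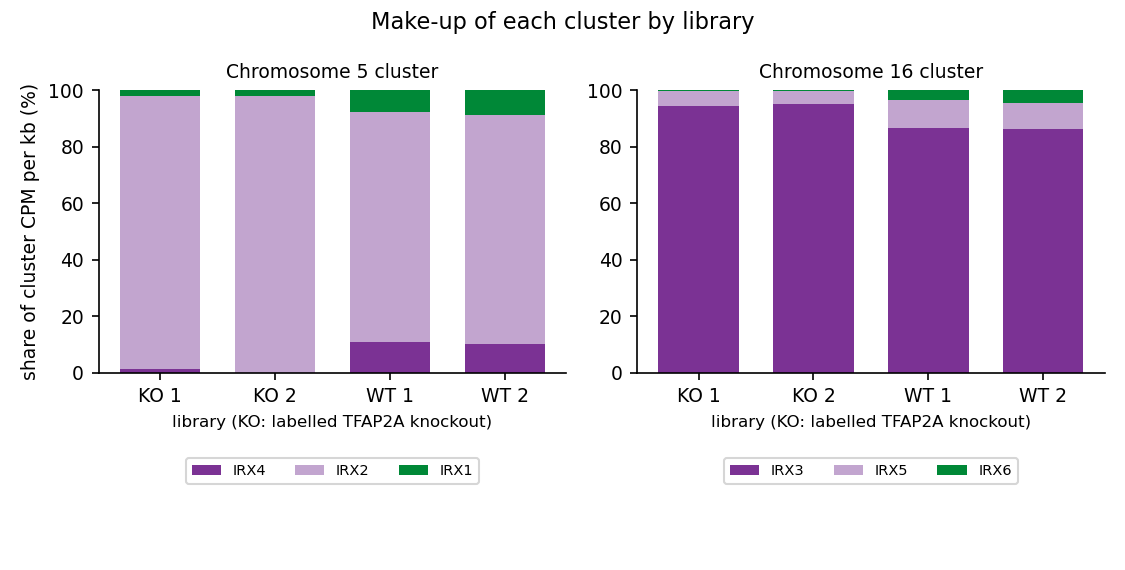
Share of the summed CPM per kilobase of each cluster held by each of its 3 genes, in percent, for each library (KO, labelled knockout). IRX2 and IRX3 take larger shares in the libraries labelled knockout (97.4% and 94.9% on average) than in WT (81.5% and 86.6%).

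C5orf38 and CRNDE, the tested partner genes close to an Iroquois start, were both lower in the libraries labelled knockout. By the hg19 coordinates, not the RefSeq starts used above, C5orf38, named IRX2-DT in RefSeq, begins 475 bp from IRX2 on the opposite strand. It was at 4.30 and 3.19 CPM in the libraries labelled knockout, against 17.8 and 18.5 CPM in WT (log2 fold change -2.28, SE 0.16; edgeR's quasi-likelihood test, adjusted p = 2.69e-08). CRNDE, a long non-coding RNA gene 2009 bp from IRX5 and also on the opposite strand, was at 13.9 and 13.1 CPM in the libraries labelled knockout, against 18.5 and 15.1 CPM in WT. Its log2 fold change was -0.32 (SE 0.12; edgeR's quasi-likelihood test, adjusted p = 0.0479). That call was lost in 6 of 10 alternatives, among them leaving out knockout replicate 1 (adjusted p = 0.0947), knockout replicate 2 (0.191) or WT replicate 1 (0.406). IRX5 over the same short distance had a log2 fold change of -1.74, and the difference between it and CRNDE was not tested. The long non-coding genes LINC01017, LINC01019 and LINC01020 of the chromosome 5 region and CTD-2194D22.4, which begins 151 bp from IRX4, had 0 counts in all 4 libraries.

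The share of called genes around the chromosome 5 cluster was not above that of all genes. Within 2 Mb of either end there were 49 other genes, 28 of them tested, and 4 fell, 5 rose and 19 did not pass (median log2 fold change -0.08), against 22.3% lower and 21.9% higher among all genes tested. SLC6A19 passed the filter through the WT libraries only. By edgeR's test the 6 largest changes among those that passed were ADAMTS16, a secreted metalloproteinase gene (2.52), C5orf38, the amino acid transporter gene SLC6A19 (-1.13), ZDHHC11 (-0.88), the potassium-chloride cotransporter gene SLC12A7 (0.84) and LOC100288152 (0.64), as log2 fold changes. LOC100288152 overlaps SLC9A3 on the other strand, so its reads cannot be assigned with certainty. The genes nearest to IRX4 that were tested, NDUFS6 and MRPL36, which encode mitochondrial proteins, had log2 fold changes of 0.03 and 0.13 and did not pass. In the fits with a library left out there were 3 higher without knockout replicate 2 or WT replicate 2, and 2 lower genes without knockout replicate 2 or WT replicate 1. SLC6A19 lost its call in 7 of 10 alternatives, and ZDHHC11 and LOC100288152 each in 3, while ADAMTS16, C5orf38 and SLC12A7 kept theirs in all 10.

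Around the chromosome 16 cluster there were 54 other genes within 2 Mb, of which 24 were tested, and 11 fell, 5 rose and 8 did not pass (median log2 fold change -0.10). Among all genes tested 22.3% were lower and 21.9% higher. SLC6A2 and MT2A, among those that fell, passed the filter through the WT libraries only, so they had to differ to be tested. Within 500000 bp, 5 of 5 tested genes fell, namely FTO, CRNDE, MMP2, LPCAT2 and SLC6A2. This count includes SLC6A2, so it cannot be set against the share over all genes. Of 10 alternatives, CRNDE lost its call in 6, MMP2 in 2 and FTO in 1. FTO, an RNA demethylase gene 168832 bp from IRX3, was at 84.0 and 84.5 CPM in the libraries labelled knockout, against 95.3 and 100.03 CPM in WT (log2 fold change -0.21, SE 0.06; edgeR's quasi-likelihood test, adjusted p = 0.00849). MMP2, a matrix metalloproteinase gene 148408 bp from IRX6, had a log2 fold change of -0.24 (SE 0.06; edgeR's quasi-likelihood test, adjusted p = 0.00412). The calls of FTO (adjusted p = 0.0784 without WT replicate 2) and MMP2 (0.0576 without knockout replicate 1, 0.0528 without WT replicate 1) were each lost when a library was left out.

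LPCAT2, a lysophospholipid acyltransferase gene next to MMP2, fell further than either, to 34.9 and 30.4 CPM in the libraries labelled knockout against 66.8 and 71.3 CPM in WT (log2 fold change -1.08, SE 0.08; edgeR's quasi-likelihood test, adjusted p = 5.04e-08). SLC6A2, the noradrenaline transporter gene, was at 0.435 and 0.412 CPM in the libraries labelled knockout, against 1.73 and 1.90 CPM in WT (log2 fold change -2.14, SE 0.36; edgeR's quasi-likelihood test, adjusted p = 0.000257). The other large changes lay farther out. They were MT2A (-2.83), a metallothionein gene of few counts in a family of near-identical copies, HERPUD1 (-1.76), an endoplasmic reticulum stress gene, PLLP (1.06) and the G protein gene GNAO1 (-1.01), as log2 fold changes that passed edgeR's test. PLLP lost its call in 3 of 10 alternatives and GNAO1 in 2.

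**Figure D4:**
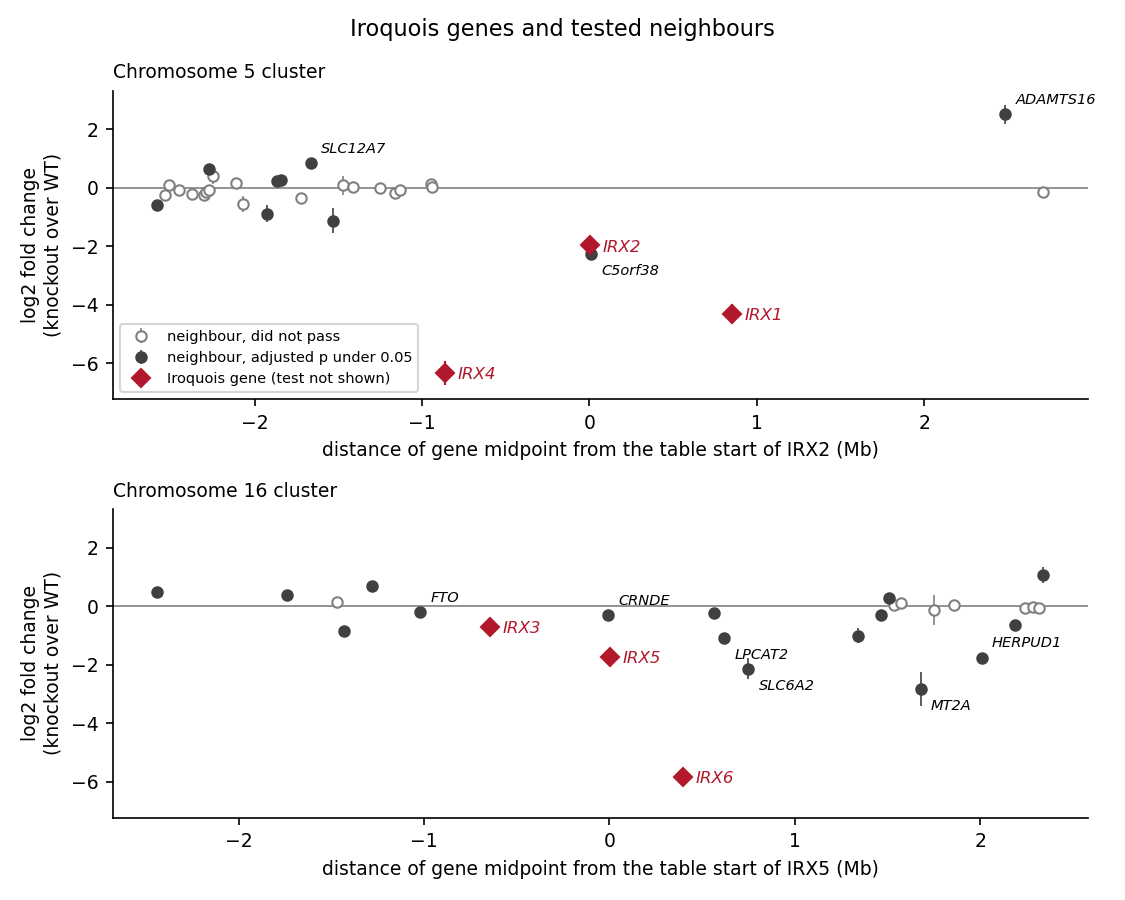
Log2 fold change (knockout-labelled over WT) of the Iroquois genes (red, shown as a description) and of the tested genes within 2 Mb of each cluster, against the distance in Mb from the table start of IRX2 or IRX5. Bars are standard errors, and filled circles passed an adjusted p of 0.05. C5orf38 lies beside IRX2 at -2.28, while CRNDE beside IRX5 is at -0.32.

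Most of the other TALE homeobox genes that passed the test were higher. Of 12 such genes, 11 were tested, and 5 rose, 1 fell and 5 did not pass (median log2 fold change 0.18, against 0.0019 over all genes tested). Among all genes tested 21.9% were higher and 22.3% lower, and this list was chosen with earlier results of these data known. MEIS3, a HOX cofactor gene, was at 148 and 162 CPM in the libraries labelled knockout, against 74.2 and 63.5 CPM in WT (log2 fold change 1.17, SE 0.08; edgeR's quasi-likelihood test, adjusted p = 1.64e-07). PKNOX2 rose by 0.90 and MEIS2 by 0.47 on the log2 scale, and PKNOX1 fell by 0.33. MEIS1 (0.18) and TGIF2 (0.18), named after their values were seen, were the others that rose, and neither passed without WT replicate 1 (edgeR's quasi-likelihood test, adjusted p = 0.109 and 0.126). TGIF2 also lost its call without knockout replicate 2 (0.0840). MKX, a tendon factor and close relative of the Iroquois genes, had 1 to 4 counts in each library and was not tested.

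A list of 13 genes held described partners or targets of Iroquois factors and genes of looser relation, such as RPGRIP1L. Of these, 9 were tested, and 3 rose, 3 fell and 3 did not pass (median log2 fold change -0.05). Among all genes tested 21.9% were higher and 22.3% lower, so this count is not a result about the list. GATA3 and TRPS1 encode zinc finger factors described as partners of IRX5. TRPS1 was at 49.9 and 47.8 CPM in the libraries labelled knockout, against 18.8 and 20.8 CPM in WT (log2 fold change 1.30, SE 0.08; edgeR's quasi-likelihood test, adjusted p = 9.99e-09), whereas GATA3 fell by 0.49 on the log2 scale, a call lost without knockout replicate 2 (edgeR's quasi-likelihood test, adjusted p = 0.0563). CXCL12, a chemokine gene described as repressed by Irx5 in Xenopus, was at 33.2 and 31.9 CPM in the libraries labelled knockout, against 82.8 and 81.7 CPM in WT (log2 fold change -1.34, SE 0.07; edgeR's quasi-likelihood test, adjusted p = 1.11e-09). BMP4, a growth factor gene described as repressed by Xiro1 in Xenopus, fell by 1.57 on the log2 scale. RPGRIP1L, a ciliary gene beside FTO that is also counted among the genes near the chromosome 16 cluster, rose by 0.70. The connexin gene GJA1 rose by 0.43. GATA3 and GJA1 were named after their values were seen.

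Of 14 genes that share or oppose Iroquois territories in neural and ectoderm patterning, 11 were dropped for low counts and 3 were tested. GBX2, a hindbrain factor that passed the filter through the knockout-labelled libraries only and so had to be higher, had 91 and 66 counts in the libraries labelled knockout, against 2.5 and 1 counts in WT (edgeR's quasi-likelihood test, adjusted p = 5.51e-07). PAX6 was at 7.30 and 5.75 CPM in the libraries labelled knockout, against 2.29 and 2.67 CPM in WT (edgeR's quasi-likelihood test, adjusted p = 7.33e-05). OTX2, SIX3, OLIG2 and NKX6-1, factors that meet Iroquois genes at borders of the neural plate or neural tube, were at 6.5 counts or fewer in every library and were not tested.

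Markers of several cell types also differed between the genotypes, some in the direction of the Iroquois genes and some in the other. The part of these markers in the falls of the Iroquois genes was not tested. The marker lists were chosen with earlier results of these data known, so counts of called markers cannot serve as evidence. Among all genes tested 22.3% were lower and 21.9% higher. Of 12 non-neural ectoderm markers, 9 fell and 3 did not pass. The 9 include TFAP2A and TFAP2C, the genes named in the labels of the knockout samples. Those that did not pass were GATA2 (-0.12), TP63 (-0.31) and KRT18 (-0.23), as log2 fold changes, named after their values were seen. The summed level of the 12 markers was 2342 to 2427 CPM in the libraries labelled knockout and 3334 to 3635 CPM in WT. KRT8, KRT18, KRT19 and CDH1, named after their values were seen, made up most of it in both genotypes. The largest falls of this list were in TFAP2C and in the homeobox genes DLX3, DLX5 and MSX2. These 3 homeobox genes fell by 1.71, 1.58 and 1.11 on the log2 scale. Of 10 neural ectoderm markers, 4 were dropped for low counts and 6 were tested, and all 6 were higher. SOX1 passed the filter through the knockout-labelled libraries only and so had to be higher, which leaves 5 of 5. The list's sums were 297 to 338 CPM in the libraries labelled knockout and 130 to 131 CPM in WT. Most of each sum was CDH2, named after its values were seen. CDH2 was at 265 and 248 CPM in the libraries labelled knockout and 110 and 112 CPM in WT. SOX3 and PAX6 rose by 1.95 and 1.39 on the log2 scale, and SOX1 had 25 and 15 counts in the libraries labelled knockout, against 1 count in each WT library. SOX2 rose by 1.87, a call lost in 3 of 10 alternatives, among them leaving out WT replicate 1 (edgeR's quasi-likelihood test, adjusted p = 0.114) or WT replicate 2 (0.248). The 4 genes of this list dropped for low counts, ZIC1, OTX2, HES5 and SIX3, were at 6.5 counts or fewer in every library. Of 8 amnion and trophoblast markers, 6 fell and 1 rose, with sums of 194 to 263 CPM in the libraries labelled knockout and 2101 to 2273 CPM in WT. VTCN1, a surface protein gene, averaged 17.5 ± 3.41 CPM in the libraries labelled knockout and 348 ± 6.495 CPM in WT (SD, n = 2 each). GABRP averaged 62.6 ± 22.1 CPM and 1167 ± 57.6 CPM in the same order, and its call was lost without WT replicate 1 (edgeR's quasi-likelihood test, adjusted p = 0.0879) or WT replicate 2 (0.124). The aromatase gene CYP19A1 had 3 counts in each library labelled knockout, against 45.5 and 51.5 counts in WT. CYP19A1 and CGA passed the filter through the WT libraries only. The hormone subunit gene CGA was at 0 in the libraries labelled knockout, against 26.5 and 48 counts in WT, and XAGE3 was at 0 throughout. ISL1, named after its value was seen, was the gene that rose (log2 fold change 1.71).

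Of 8 mesenchyme markers, 5 fell, 1 rose and 2 did not pass (7953 to 9342 CPM in the libraries labelled knockout and 10048 to 10390 CPM in WT). PRRX1, POSTN, PRRX2 and TWIST1 fell by 2.55, 2.45, 0.62 and 0.45 on the log2 scale. LUM, named after its value was seen, rose by 0.36, a call lost with DESeq2's size factors and without either knockout replicate or WT replicate 1. Of 10 cardiac muscle markers, 7 were tested, with 3 higher and 2 lower, and sums of 87.4 to 101 CPM in the libraries labelled knockout and 63.4 to 64.6 CPM in WT. The ventricular muscle gene MYL2 was at 0 in all libraries and MYH7 at 3.5 counts or fewer, while TNNT2, the cardiac troponin T gene, was at 17.7 and 18.4 CPM in the libraries labelled knockout and 18.7 and 16.8 CPM in WT. The myosin gene MYH6 fell by 1.68 on the log2 scale, and RYR2 and ACTN2 rose by 0.96 and 0.61 (edgeR's quasi-likelihood test). NKX2-5, which passed the filter through the WT libraries only, fell by 1.88 on 12.5 to 13.5 counts in WT, a call lost in 4 of 10 alternatives, and that of ACTN2 was lost in 2. Calls for this list moved with the libraries used, with 1 higher without WT replicate 2 and 1 lower without WT replicate 1 or either knockout replicate. Of 6 pluripotency markers, 4 were tested and 1, LIN28A, fell, with sums of 443 to 509 CPM in the libraries labelled knockout and 645 to 705 CPM in WT, and NANOG had 1 count or fewer in each library.

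**Figure D5:**
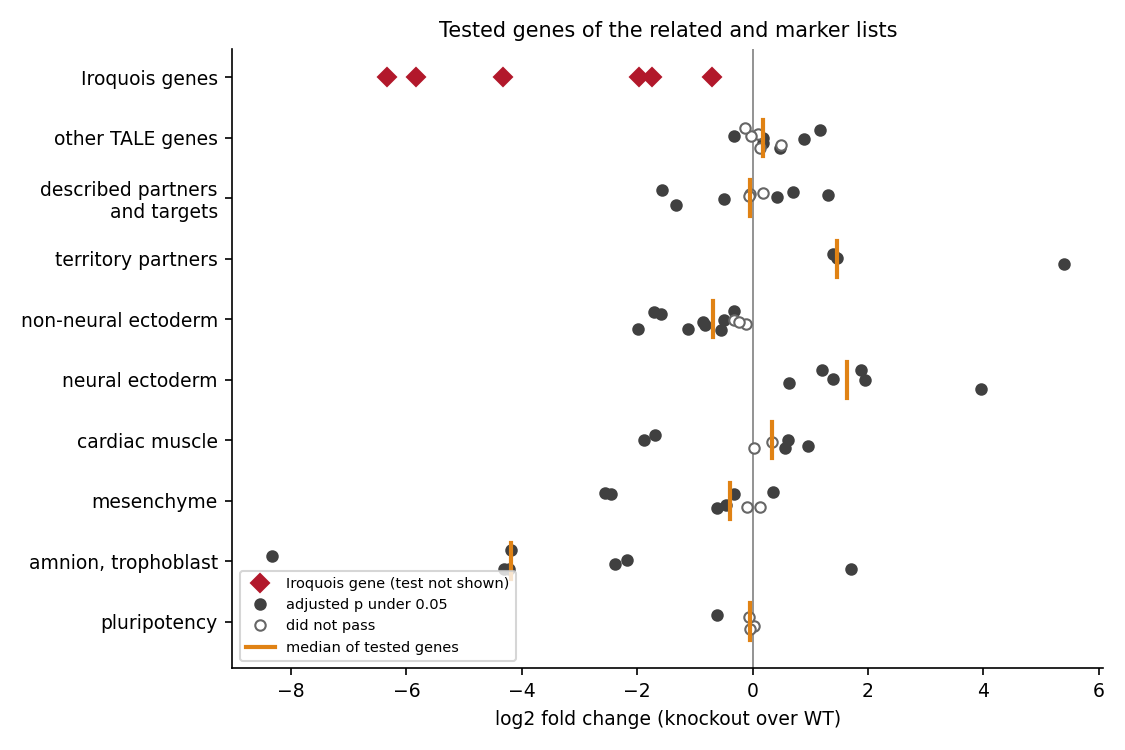
Log2 fold change (knockout-labelled over WT) of the Iroquois genes (red, shown as a description) and of the tested genes of each list, filled where the adjusted p was under 0.05, with the median as a bar. Other TALE genes have a median of 0.18 and amnion and trophoblast markers one of -4.19, which is the value of CYP19A1. CYP19A1 and CGA passed the low-count filter through the WT libraries only, so this median rests in part on genes that had to differ. The point of CGA, with 0 counts in the libraries labelled knockout, is a fitted value.

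Genes with the most similar pattern to each Iroquois gene were found by the Euclidean distance between log2(CPM + 1) values over the 4 libraries, after subtracting the mean of each gene. This scale understates the change of low genes. IRX1 was nearest to MYO7A, ALPK2 and HAND1, at distances of 0.0940 to 0.102. For IRX2 they were TMTC1, CDX1 and DLK1 (0.0272 to 0.0853), and for IRX3 ZFYVE21, NAPRT and LOC286367 (0.0330 to 0.0426). IRX4 was nearest to TMPRSS2, KCNJ12 and GFRA2 (0.15 to 0.178). Among the nearest to IRX5 were MAN1A1 and MMP28 (0.0885 and 0.106), and those of IRX6 were GRAMD2, CALB2 and HHIP (0.21 to 0.241). No Iroquois gene was among the 3 nearest of another, and the closest pair of the family were IRX1 and IRX2, at a distance of 0.295.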

How the data were processed

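RNA of 4 libraries of H9 cells was sequenced after polyA selection, per the labels' protocols. The authors deposited estimated counts per gene for each library, in multiples of 0.5, and 37.0% of values were not whole. Per the submitters' processing notes TopHat, HOMER and DESeq2 were used with hg38. The sources used here do not give settings, annotation, strand use or read length. Table positions did not match GRCh38 (4.34% of starts within 2000 bp) and 42 table rows carry hg19 contig names. Coordinates are therefore given as hg19.

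Counts were rounded, filtered with filterByExpr (15643 genes left, 10 counts at the median library size in 2 libraries), scaled with TMM and tested with edgeR 4.0.16 (glmQLFit, robust, and glmQLFTest on genotype) in R 4.3.3, with Benjamini-Hochberg adjustment over all genes tested and a threshold of 0.05. Standard errors are the log2 fold change over the square root of F. The procedure was tested on simulated data. Alternatives were DESeq2 1.42.0, other scaling, no filter, rounding down, a replicate block and leaving out each library. At this depth 3 counts correspond to 0.137 to 0.17 CPM. Replicates differed by more than sampling noise (chi-square per degree of freedom 4.17 in the libraries labelled knockout and 4.32 in WT).

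The Iroquois genes and the lists were chosen with earlier results of these data known. Named genes were all 6 members, the adjacent genes, up to 6 called genes within 2 Mb of each cluster, up to 4 called genes of each list and, for each member, the 3 nearest genes averaging 1 CPM or more and protein-coding or of no class. Some genes that this rule names are not reported here. Other genes named are defining markers, low-count genes of a list or marked as chosen after their values were seen. The table has no length column, so exon lengths came from GENCODE 29. Transcripts of the members share few 50-base stretches, at most 85 between any pair (IRX3 and IRX5, of 3002 and 2988), where reads could be split.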

Additional observations from a re-analysis of the deposited data

How the results depend on the processing

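All 6 Iroquois genes kept a negative log2 fold change under the 10 alternatives. Leaving out 1 library gave -10.32 to -5.30 for IRX4, where the lowest value is fitted against a library with 0 counts and is no bound. The ranges were -4.47 to -4.17 for IRX1, -1.97 to -1.52 for IRX5 and -6.47 to -5.34 for IRX6. Over all genes, DESeq2 called 2271 higher and 2444 lower, against 3427 and 3492 with edgeR. The replicate block gave 3050 higher and 3154 lower; same-numbered libraries did not deviate together (correlation of deviations -0.0464), and with 2 pairs the numbers cannot be taken to pair the libraries. Near the chromosome 5 cluster, DESeq2 called 2 higher and 2 lower, and leaving out 1 library gave 3 to 4 higher and 2 to 4 lower. Near the chromosome 16 cluster, DESeq2 called 3 higher. A window of 1000000 bp held 13 tested genes on chromosome 5, with 3 higher and 2 lower. On chromosome 16 it held 10, with 2 higher and 7 lower. One of 500000 bp held 6 tested genes on chromosome 5, with 0 higher and 1 lower, and 5 on chromosome 16, with 0 higher and 5 lower. The lower genes include SLC6A2 and, at 1000000 bp, SLC6A19, which passed the filter through the WT libraries only. These counts therefore cannot be set against the share over all genes.

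Without length scaling, IRX2 held 98.4% of its cluster in the libraries labelled knockout and 86.5% in WT, IRX1 held 1.09% and 4.72% in the same order, IRX4 held 8.80% in WT and IRX3 held 86.01% in WT. The alternatives were checked for 48 tested genes outside the family, named from the lists, near the clusters or for the label check. Of these, 35 kept their call and direction under all 10 alternatives. The genes named for a pattern most like that of a member were not added to this check. DPPA4, which did not pass, lay between -0.138 and 0.0557 when 1 library was left out, above 0 without knockout replicate 2 or WT replicate 2; the cause was not tested. Few counts limit the fold changes of IRX1, IRX4 and IRX6. With 2 libraries a genotype, the spread rests on 2 residual degrees of freedom.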
